A study of Mus musculus with 11 samples.

Results

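The promoters of 9 proneural and neuronal differentiation factors of the basic helix-loop-helix (bHLH) family were examined for ST18 occupancy. They were Neurog1, Neurog2, Neurog3, Atoh1, Neurod1, Neurod2, Neurod4, Neurod6 and Bhlhe22, taken by gene symbol from a table of 21881 promoter windows, and all 9 had a window. Of these, 4 were treated as early proneural genes (the 3 Neurogenins and Atoh1) and 4 as later Neurod genes, and Bhlhe22 was placed in neither group. ST18 belongs to the MYT1 family of zinc finger DNA-binding proteins. The series asked where it binds and what its knockdown does in the developing mouse cortex.

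The values came from chromatin immunoprecipitation (ChIP) sequencing with an antibody to the HA tag, from cells that the labels call TN and describe as in vitro, with genomic DNA as input. The labels list 2 ST18 ChIP samples and 1 input sample, but the table has 1 ST18 column and 1 input column, so no replicates were available for any value. Whether the ST18 column holds one or both ChIP libraries is not given in the sources used here, nor is how the tagged ST18 was expressed or at what level. Any dose, time or genotype of the ChIP cells is likewise not given there. The title and description of the input sample call it input, while one of its other labels names HA ChIP. The remaining samples were RNA libraries from sorted cells of embryonic cortex, 4 with ST18 knockdown and 4 controls, and they were not analysed here. The labelled cell type, brain cell, cannot be checked in DNA libraries, since marker genes are read from RNA.

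Factors of this family bind DNA as dimers with E proteins at short sites called E-boxes. In the embryonic cortex, Neurog2 and Neurog1 are switched on in dividing progenitors, where they start the neuronal programme and raise Notch ligands such as Dll1. Neurod factors come on later, in committed precursors and young neurons, and are themselves among the genes that Neurogenins activate. Factors of the Hes family repress proneural genes, and Id proteins sequester the E protein partners.

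The genomic sequence around 5 of these promoters is shown first, as sequence next to the annotated gene start, which need not be the stretch where reads were counted. These are the early gene with the lowest enrichment (Neurog1), the main proneural gene of the dorsal cortex (Neurog2), the members with the highest and lowest enrichment (Neurod1 and Neurod4), and Neurod2, which holds the most E-boxes of the promoters searched. Each sequence runs from 250 bases before to 50 bases after a RefSeq transcription start, 5′ to 3′ on the gene's strand, from RefSeq promoters on GRCm38.p6. Capitals mark E-boxes (CANNTG, 6 letters) and the core AAGTT of the MYT1 family site, or its reverse complement AACTT (5 letters). The positions are chr13:56252131-56252430 (minus strand) for Neurog1, chr3:127632886-127633185 (plus) for Neurog2, chr2:79456587-79456886 (minus) for Neurod1, chr11:98329596-98329895 (minus) for Neurod2 and chr10:130280205-130280504 (minus) for the upstream one of the 2 Neurod4 starts.
Neurog1: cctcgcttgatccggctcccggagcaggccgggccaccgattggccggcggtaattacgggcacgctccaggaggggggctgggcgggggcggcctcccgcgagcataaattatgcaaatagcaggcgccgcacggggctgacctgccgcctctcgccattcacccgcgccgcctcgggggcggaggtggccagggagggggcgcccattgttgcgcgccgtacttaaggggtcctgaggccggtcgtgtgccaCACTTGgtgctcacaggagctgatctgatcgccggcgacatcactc
Neurog2: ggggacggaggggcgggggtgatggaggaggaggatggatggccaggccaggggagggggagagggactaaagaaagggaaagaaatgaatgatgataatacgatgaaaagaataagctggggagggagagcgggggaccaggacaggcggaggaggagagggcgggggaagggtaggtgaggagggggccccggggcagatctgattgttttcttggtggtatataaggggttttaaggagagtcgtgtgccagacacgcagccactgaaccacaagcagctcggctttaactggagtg
Neurod1: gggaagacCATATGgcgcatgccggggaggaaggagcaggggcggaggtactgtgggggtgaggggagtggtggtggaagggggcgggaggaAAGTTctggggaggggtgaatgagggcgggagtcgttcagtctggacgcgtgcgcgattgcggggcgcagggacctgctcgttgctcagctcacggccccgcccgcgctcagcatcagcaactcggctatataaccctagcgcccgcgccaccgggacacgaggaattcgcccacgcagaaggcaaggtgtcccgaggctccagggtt
Neurod2: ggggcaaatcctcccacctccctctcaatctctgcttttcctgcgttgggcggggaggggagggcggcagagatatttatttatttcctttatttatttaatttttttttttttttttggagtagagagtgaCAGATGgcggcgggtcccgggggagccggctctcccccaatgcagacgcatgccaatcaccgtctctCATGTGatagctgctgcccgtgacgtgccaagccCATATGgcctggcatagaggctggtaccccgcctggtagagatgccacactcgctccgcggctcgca
Neurod4: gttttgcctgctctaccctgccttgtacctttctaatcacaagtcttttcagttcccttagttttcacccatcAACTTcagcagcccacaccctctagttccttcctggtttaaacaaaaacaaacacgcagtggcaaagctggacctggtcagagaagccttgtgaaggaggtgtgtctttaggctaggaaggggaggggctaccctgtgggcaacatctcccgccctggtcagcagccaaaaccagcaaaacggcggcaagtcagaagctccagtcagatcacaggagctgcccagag

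RefSeq promoters were found for 8 of the 9 genes and not for Bhlhe22, and Neurod4 had both an upstream and a downstream start. The full MYT1 family site AAAGTTT, searched on both strands, was in none of these 9 promoter sequences, against 4.74% of all 32851 RefSeq promoters of the same length. The shorter core AAGTT, which also lies within the full site, was in 3 of the 9, against 39.3% of all promoters. Those were Atoh1, Neurod1 and the upstream start of Neurod4, so the core was present both at the member with the highest enrichment and at the one with the lowest. An E-box was in 6 of the 9, against 72.3%. Neurod2 held 3 E-boxes, 1 of them the form CAGATG, which 17.2% of all promoters hold. The form CAGCTG was in Neurog3 and at the downstream start of Neurod4 (2 of 9, against 16.3%). The printed Neurog2 stretch held neither an E-box nor the MYT1 family core. The N-box CACNAG, the site of Hes repressors, was in 6 of the 9, against 42.5%. These came from 5 genes, since both Neurod4 stretches, which overlap, held it. The exact TATA form TATAAA was in none, against 13.6%, and other TATA forms were not searched. A match is a run of letters, not a bound site, and where the counted windows lie around the start is not stated, so these stretches may cover only a part of them.

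**Figure D1:**
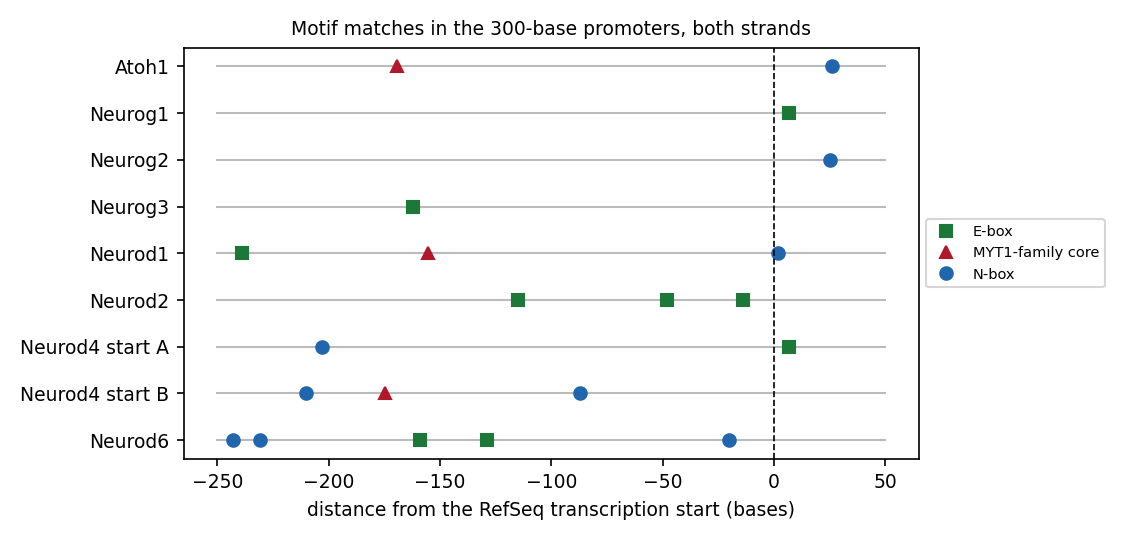
Matches to the E-box (squares), the MYT1 family core (triangles) and the N-box (circles) in the 9 RefSeq promoters of 8 genes, by distance from the transcription start in bases. Neurod4 start B is the upstream start and start A the downstream one. The MYT1 family core is marked at Atoh1, Neurod1 and the upstream Neurod4 start, and Neurod2 carries 3 E-boxes.

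In base composition the members ranged widely. Neurog1 (69.3% G and C), Neurog3 (68.3%) and Neurod1 (66.7%) lay above the upper quartile of all RefSeq promoters (61.7%). Neurod6, at 46.3%, and the upstream start of Neurod4, at 52.3%, lay below the median of 52.7%. The CpG content over that expected from base composition was 0.89 at Neurog1, 0.84 at both Neurod1 and Atoh1, 0.70 at Neurod2, 0.57 at Neurog2 and 0.55 at Neurog3, against a median of 0.384 for all promoters. It was 0.20 and 0.32 at the upstream and downstream starts of Neurod4 and 0.19 at Neurod6. All 4 early promoters thus lay above that median, and of the 4 later Neurod genes 2 lay above it and 2 below. Another gene's start within 1 kb was annotated only for Atoh1 (Gm35851), and it has no window in the table.

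The first comparison asked whether ST18 reads exceeded input reads at these promoters, relative to promoters in general. They did not stand out. All 9 ST18 counts, from 15 to 25 reads per 1000 bp window, lay within the interquartile range of all windows (14 to 26, median 20). Input counts ran from 4 to 13 reads, and 5 of the 9 lay within the interquartile range of all windows (5 to 10, median 7). In total the ST18 column held 438960 reads over all windows and the input column 160443, a ratio of 2.74 ST18 reads per input read. A fold below is a promoter's own ratio divided by that one, with an exact (Clopper-Pearson) 95% binomial interval. The deposited log2 enrichment is the authors' value, on a scale damped by a pseudocount of 16 reads. Reads were not tagged by molecule, so copies of one fragment cannot be told from separate fragments and the intervals cover counting error only.

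Among the early genes, Neurog3, which drives endocrine fate in the pancreas, had the highest ratio. It held 19 ST18 reads against 5 input reads, a fold of 1.39 (0.502 to 4.76) and a deposited log2 enrichment of 0.17. Atoh1, the proneural factor of cerebellar granule cells and inner ear hair cells, held 25 ST18 reads against 8 input reads, a fold of 1.14 (0.499 to 2.93) and a log2 enrichment of 0.12. Its ST18 count was the highest of the 9 promoters. Neurog2 held 21 ST18 reads against 7 input reads, a fold of 1.10 (0.449 to 3.05) and a log2 enrichment of 0.09. Neurog1, which shares the early role with Neurog2 in the cortex and specifies sensory neurons elsewhere, held 19 ST18 reads against 12 input reads, a fold of 0.579 (0.267 to 1.31) and a log2 enrichment of −0.24. Neurog1 and Neurog3 thus had the same number of ST18 reads and lay at opposite ends of the early group through their input counts. Of all windows, 7.62% held more input reads than Neurog1.

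The later genes spanned a wider range. Neurod1, a Neurogenin target that promotes differentiation and survival of young neurons, had the highest enrichment of all 9 members. It held 23 ST18 reads against 4 input reads, a fold of 2.10 (0.718 to 8.36) and a log2 enrichment of 0.34, a value reached by 9.68% of all windows. Neurod6 (Nex), which marks postmitotic excitatory neurons of the cortex, held 22 ST18 reads against 7 input reads, a fold of 1.15 (0.474 to 3.18) and a log2 enrichment of 0.12. Neurod2, a factor of maturing excitatory neurons, held 15 ST18 reads against 9 input reads, a fold of 0.609 (0.250 to 1.58) and a log2 enrichment of −0.18. It had the fewest ST18 reads of the 9. Neurod4 (Math3), which is active in precursors of the retina and midbrain, held 19 ST18 reads against 13 input reads, a fold of 0.534 (0.250 to 1.18) and a log2 enrichment of −0.29. It had the most input reads of the 9 and the lowest enrichment, and 94.0% of all windows were at or above it.

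Bhlhe22 (Bhlhb5), an Olig-related repressor of postmitotic neurons that acts with Prdm8 in cortical area and projection identity, held 17 ST18 reads against 11 input reads. Its fold was 0.565 (0.250 to 1.33) and its log2 enrichment −0.24, close to the values of Neurog1 and Neurod4.

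**Figure D2:**
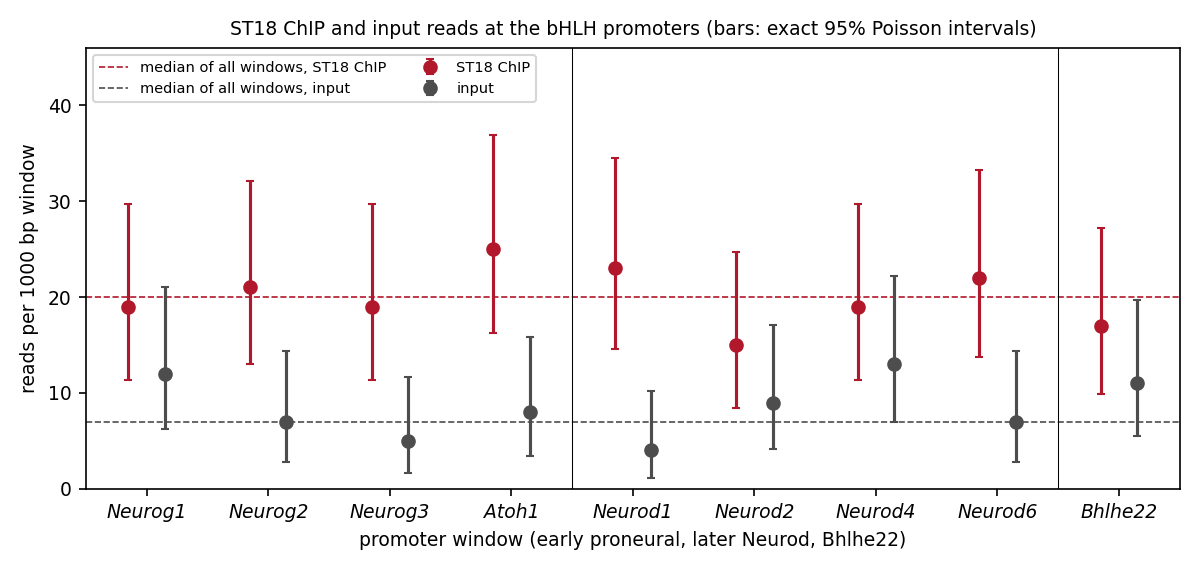
Reads per 1000 bp promoter window in the ST18 ChIP column (red) and the input column (grey) for each member, with exact 95% Poisson intervals; dashed lines are the medians of all windows, 20 and 7 reads. ST18 counts lie between 15 and 25, and input counts between 4 at Neurod1 and 13 at Neurod4.

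No member passed the exact two-sided binomial test, which set the reads of each window against the ratio of 2.74 and was adjusted by Benjamini-Hochberg over the 21358 windows that held reads (0 of 9). Over all these windows the test called 0.0375% higher and 0.00936% lower. It compares the reads of 2 columns, not conditions. The lowest adjusted p among the members was 0.792, at Neurod4, and the lowest unadjusted p was 0.107 (exact test). At an unadjusted p under 0.05 the count was also 0 of 9, where 2.55% of windows were higher and 4.5% lower. None reached a log2 enrichment of 1, which 0.0548% of windows did, or of 0.58, which 1.15% did, and none lay at or below −0.58 (0.219%). Of the 9, 5 lay above the median log2 enrichment of all windows, 0.04, and 4 below it.

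The depth limits what this could show. At the totals counted, 24 to 33 reads per window in both columns together, no split of a member's reads could have been called higher. Added ST18 reads at a bound promoter would also raise its total, so whether a strong enrichment could have been called was not tested. If every read of a window had been an ST18 read, its adjusted p would have been between 0.0526 at Atoh1 and 0.256 at Neurog3 and Neurod2 (exact binomial test). Even the unadjusted threshold needed 25 ST18 reads of 27 at Neurod1, a fold of 4.57, and 28 of 31 at Neurog1, a fold of 3.41. At those same totals a called depletion was within reach. It needed at most 10 ST18 reads of 28 at Neurog2, where 21 were counted. At Neurod4 it needed at most 12 of 32, where 19 were counted. Such splits also hold more input reads than were counted, so these limits do not rank enrichment against depletion. All 9 intervals included a fold of 1. At Neurog1, Neurod2, Neurod4 and Bhlhe22 their upper bounds lay between 1.18 and 1.58, so a larger enrichment than that was outside the counting error there. At Neurod1, with 4 input reads, the interval reached 8.36, so a several-fold enrichment remains within its error.

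**Figure D3:**
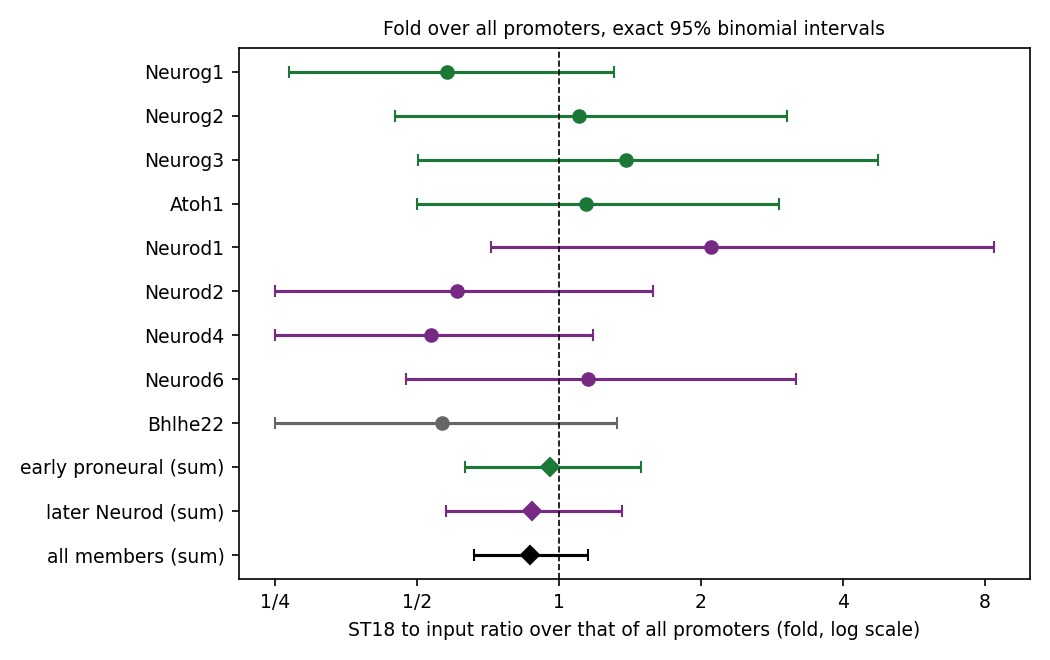
Fold of each promoter's ST18 to input ratio over that of all promoters (log axis), with exact 95% binomial intervals, for single genes (circles) and summed reads (diamonds). Every interval crosses 1, shown as the dashed line; Neurod1 is highest at 2.10 and Neurod4 lowest at 0.534.

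In order of their ratios the members ran Neurod1, Neurog3, Neurod6, Atoh1, Neurog2, Neurod2, Neurog1, Bhlhe22 and Neurod4. Early and later genes were interleaved in this order. No neighbours in it differed beyond counting error: each of the 8 ratios between neighbours, from 1.01 to 1.80, had an exact conditional 95% interval that included 1. The same held for the extremes, where the ratio of Neurod1 was 3.93 times that of Neurod4 (0.975 to 18.9), a pair picked for its difference. The ST18 counts of the 9 promoters had a mean of 20 reads and a variance of 9.50. That is below the variance expected on average from independent counting at one common level, which equals the mean. A variance from 9 counts is loosely estimated, and the gap was not tested. The input counts had a mean of 8.44 and a variance of 9.53, close to it.

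**Figure D4:**
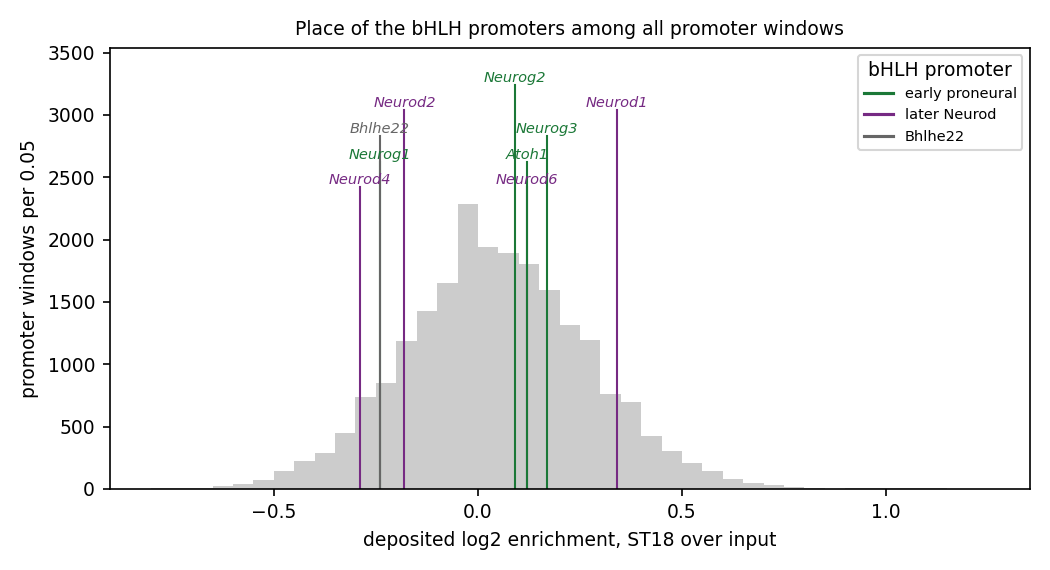
Number of promoter windows per 0.05 of deposited log2 enrichment (grey), with vertical lines at the 9 bHLH promoters. Atoh1 and Neurod6 share a line at 0.12, and Neurog1 and Bhlhe22 one at −0.24; early and later genes fall on both sides of the median of 0.04.

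The second comparison set early proneural promoters against later Neurod promoters. The 4 early promoters held 84 ST18 reads against 32 input reads in sum, a ratio of 2.62 and a fold of 0.959 over all promoters (0.632 to 1.49). The 4 later promoters held 79 ST18 reads against 33 input reads, a ratio of 2.39 and a fold of 0.875 (0.576 to 1.36). The early ratio was 1.10 times the later one, with an exact conditional 95% interval of 0.592 to 2.03, so no difference was detectable. A ratio under 0.592 or over 2.03 was outside the counting error, and a smaller difference could not be seen. The mean deposited log2 enrichment was 0.04 in the early group (SD over 4 genes 0.19) and 0.00 in the later group (SD over 4 genes 0.29), and the ranges overlapped, from −0.24 to 0.17 and from −0.29 to 0.34. The direction rested on single genes. Without Neurod4 the early ratio was 0.875 times the later one (0.430 to 1.75), without Neurod2 it was 0.984 times (0.502 to 1.91), and without Neurod1 it was 1.36 times (0.708 to 2.60). The 3 Neurogenins alone had a fold of 0.899 over all promoters (0.550 to 1.51).

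Together the 9 promoters held 180 ST18 reads against 76 input reads, a fold of 0.866 (0.659 to 1.15). Since the genes were chosen with earlier results known, no p is given for their sum. Their median log2 enrichment was 0.09, against 0.04 over all windows.

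Related genes were then set beside them. Of 14 other neural bHLH promoters, 10 lay above the median of all windows, and none was called (0 of 14). Their median log2 enrichment was 0.10 and their summed fold 1.08 (0.869 to 1.35). The highest were Olig1, an oligodendrocyte lineage factor, with 32 ST18 reads against 5 input reads (log2 0.46), and Ferd3l, a factor of the floor plate, with 30 against 6 (log2 0.36, fold 1.83, 0.748 to 5.37). The lowest were Tal1, a blood factor that also acts in inhibitory neurons of the midbrain, with 15 against 11 (log2 −0.29), and Nhlh1, a factor of young neurons, with 11 against 8 (log2 −0.23). The summed ratio of the 9 members was 0.801 times that of these 14 genes, with an interval of 0.561 to 1.15 that included 1.

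The 7 partners and inhibitors of the family, the E proteins and Id proteins, had a median log2 enrichment of 0.02, with 3 of the 7 above the median of all windows and none called. The summed ratio of the 9 members was 0.970 times that of these genes (0.622 to 1.51). Their highest members were Id3 at 0.22 and the E protein gene Tcf4 at 0.13. Their lowest were Id4 at −0.35, with 5 ST18 reads against 7 input reads, and Id1 at −0.16. Id4 lay below the ratio of all promoters at an unadjusted exact p of 0.0209 but did not pass adjustment over all windows (adjusted p = 0.568).

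Among 15 genes that act downstream of proneural factors, 9 lay above the median of all windows, their median was 0.07 and none was called. Dll1, the Notch ligand, led at 0.33 with 32 ST18 reads against 7 input reads, followed by Rcor2, a corepressor of neural progenitors, at 0.32 with 19 against 3. Eomes, the T-box factor of intermediate progenitors and a Neurog2 target, was lowest at −0.42 with 12 against 12, and the antiproliferative gene Btg2 stood at −0.18 with 17 against 10. Eomes had an unadjusted exact p of 0.0183 and an adjusted p of 0.528. The summed ratio of the 9 members was 0.888 times that of these genes (0.624 to 1.27).

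The 16 non-neural bHLH promoters, factors of muscle, heart, somites and other tissues, had a median of 0.05, with 8 above the median of all windows and none called. Ascl2, a factor of the trophoblast and intestinal stem cells, was highest at 0.55 (29 ST18 reads against 3 input reads, fold 3.53, 1.10 to 18.1, exact test, adjusted p = 0.600), followed by Mesp2, a somite factor, at 0.42. Mesp1, of the early mesoderm, was lowest at −0.20 and the muscle gene Myog next at −0.14. The summed ratio of the 9 members was 0.787 times that of this list (0.557 to 1.12). None of the 4 lists therefore differed from the members beyond counting error.

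**Figure D5:**
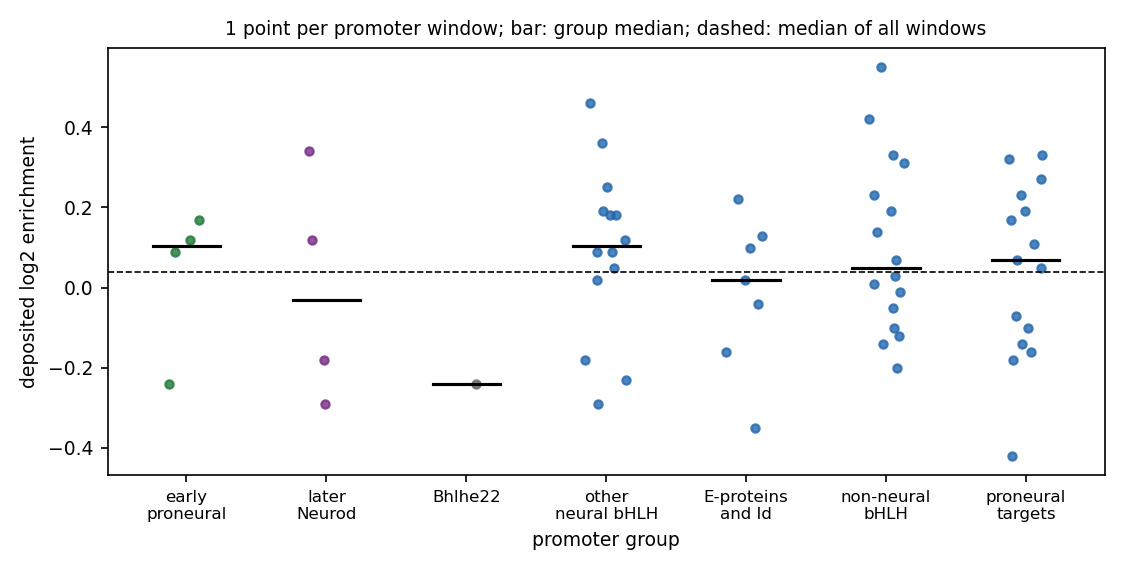
Deposited log2 enrichment of each promoter window in the early proneural and later Neurod groups, Bhlhe22 and the 4 lists of related genes, 1 point per window. Bars are medians and the dashed line is the median of all windows, 0.04; the groups overlap, with Ascl2 highest at 0.55 and Eomes lowest at −0.42.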

How the data were processed

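The authors deposited raw read counts per 1000 bp promoter window, in 1 ST18 and 1 input column, with a log2 enrichment. That value was recovered from the counts within 1e-06 in all 21881 windows, by scaling ST18 counts by 0.4055, adding a pseudocount of 16 to both columns and taking the log2 ratio. No source here says which tool made this table. The build mm9 and the tools MACS2 2.0.10.20120913, Bowtie and HTSeq 0.5.4p1 are among those in the submitters' processing notes. The peak list was not used, since the windows have no coordinates and RefSeq positions here are on GRCm38.p6.

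Folds, exact binomial tests and intervals were computed with SciPy 1.17.1. The 523 windows without reads were not tested. Groups were compared by summed reads with exact conditional intervals and no p. All 9 members were named, and of each related list the 2 highest and 2 lowest and any called. One gene of the related lists is not reported here and was left out of its list. Members and lists were chosen with earlier results of these data known. Alternatives covered pseudocount, scaling, filters, the test's tails and single genes left out.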

Additional observations from a re-analysis of the deposited data

How the results depend on the processing

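No member was called over windows with at least 10 reads or over windows with more than 5 input reads (0 each). Neurod1, with 4 input reads, and Neurog3, with 5, fell outside the input filter and were not tested there. Both filters kept each window's unadjusted exact binomial p, which was 0.107 or more at every member. Adjustment cannot lower that p, so the 0 under these filters was fixed in advance. No member was called with the ratio of the median window or with the scaling of the deposited enrichment (0 each). The doubled smaller tail of the exact binomial test, chosen after seeing the data, also called 0. No member's log2 enrichment changed sign with scaling to the promoter totals, and no fold crossed 1 with either other ratio. A pseudocount of 1 or 8, added to both columns, alters the size of a value but cannot change its sign. With a pseudocount of 1, 1 member (Neurod1) reached a log2 enrichment of 1, and the same 1 reached 0.58, where 9.57% and 24.1% of all windows did. At or below −0.58 that setting put 2 members, Neurod4 at −0.69 and Bhlhe22 at −0.60, and 13.1% of all windows. The smaller pseudocount itself widens the scale. The ratio of the early to the later group, 1.10, ranged from 0.875 to 1.36 when single genes were left out, and was 1.20 with Bhlhe22 among the later genes and 1.03 from the mean log2 values. Depth, 24 to 33 reads per window, limits every value. No replicate could be left out, and peaks could not be set against these promoters. No paired analysis was possible because the table has 1 ST18 and 1 input column without replicate numbers, and the RNA libraries were left aside.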
